A study of Mus musculus with 9 samples.

Results

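Cells of the MCEC line that overexpressed Zbtb46 were compared directly with MCEC in which Zbtb46 was knocked down, without the unmodified cells. The comparison holds 6 of the 9 RNA-seq libraries of the series, chosen by their genotype labels: 3 labelled Zbtb46 Overexpression (OE) and 3 labelled Zbtb46 knockdown (KD). MCEC, a cell line, are murine cardiac endothelial cells, and the third group, 3 libraries of the unmodified line (WT), is given below only as a reference level. The genotype is the single factor that the labels name, and no treatment, time or age is given. The labels do not say how either modification was made, whether a line is 1 clone or a pool, or whether its 3 libraries came from separate cultures, so p-values measure only the spread between these libraries. A line that carries an empty or control vector was not analysed here. Per the labels' protocols, poly-A RNA was fragmented, copied from random hexamers and read as paired ends.

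Zbtb46 belongs to the BTB zinc finger family, whose members bind DNA through zinc fingers and recruit co-repressor proteins through the BTB domain. It is best known as a transcription factor of classical dendritic cells, and it is also expressed in endothelium. The series title places it in tumour angiogenesis and tumour immunity. The comparison of the modified lines asks how cells at the high and the low end of Zbtb46 expression in this series differ.

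Zbtb46 itself separated the lines widely. Its level in CPM (counts scaled to library size with TMM factors, not divided by gene length) was 192, 189 and 194 CPM in the 3 OE libraries and 11.7, 11.4 and 10.7 CPM in the 3 KD libraries. The means were 191 ± 2.67 CPM (SD, n = 3) in OE and 11.2 ± 0.537 CPM in KD, with no overlap. Zbtb46 was 16.9-fold higher in OE, or 4.08 on the log2 scale (SE 0.040). The edgeR adjusted p was 6.58e-42, from quasi-likelihood fits with p-values adjusted by Benjamini-Hochberg over 16350 genes. The WT libraries lay at 13.3, 14.4 and 13.3 CPM, above all 3 KD libraries and far nearer to KD than to OE. The gene (ENSMUSG00000027583) lies at chr2:181387762-181459426 on the minus strand of GRCm38, and counts per gene do not tell a transcript of this locus from one of an introduced copy.

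The 6 libraries held between 40447710 and 50147936 counts each. Ribosomal RNA features took 14.2% to 18.03% of the counts in OE and 9.44% to 11.8% in KD, without overlap, and removing them left 8141 genes called against 8138 with them. Mitochondrial genes took 0.891% to 1.09% in OE and 1.04% to 1.08% in KD. On the leading principal component, with 70.1% of the variance, OE lay at -46.3 to -44.4 and KD at 44.3 to 47.6. Variation beyond counting noise was 4.67% in OE and 3.82% in KD as a coefficient of variation. Replicates of a line differed by 3.01 to 5.52 times the chi-square of sampling alone, with expected counts from library totals. This does not tell separate cultures from libraries prepared from 1 culture. Each library was counted as its own sample.

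The endothelial label was checked against 25 endothelial genes, and most of them did not bear it out. Only 6 of the 25 had a mean of at least 1 CPM over the OE and KD libraries. The summed level of all 25 was 118 to 132 CPM in OE, 146 to 155 CPM in KD and 169 to 180 CPM in WT. Most of that sum came from Eng, the TGF-beta co-receptor endoglin, at 84.9 ± 3.04 CPM in OE and 108 ± 3.09 CPM in KD. Erg, Sox17, Sox7, Emcn, Clec14a, Vwf and Icam2 had at most 3 counts in each of the 6 libraries, and Pecam1 and Cdh5, which encode the junction proteins CD31 and VE-cadherin, reached no more than 0.222 and 0.141 CPM. Of 9 fibroblast markers, Lum and Tcf21 were at this floor in all 6, while the summed level was 4060 to 4150 CPM in OE and 4880 to 4950 CPM in KD, mostly Col1a1. The 6 epithelial markers summed to 429 to 435 CPM in OE and 581 to 602 CPM in KD, nearly all of it Krt14, with Epcam and Krt5 at the floor. The 11 leukocyte and dendritic cell markers summed to 3.42 to 4.64 CPM in OE and 5.29 to 5.78 CPM in KD, and Ptprc, Itgam, Itgax, Adgre1 and Clec9a were among those at the floor. The 10 smooth muscle and pericyte markers summed to 9.49 to 10.4 CPM in OE and 11.4 to 13.3 CPM in KD, with Kcnj8 at the floor. The 6 lymphatic markers summed to 159 to 164 CPM in OE and 202 to 210 CPM in KD. Prox1, Lyve1, Reln and Ccl21a were at the floor, so that this sum rests on Pdpn and Flt4. The 9 cardiomyocyte markers overlapped between the lines, at 7.33 to 8.87 and 8.82 to 9.82 CPM, and Myh6, Myh7, Nppa and Pln were at the floor. In bulk RNA, fewer cells of a type and less RNA per cell cannot be told apart, and the part of these markers in the results was not tested.

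OE and KD differed in about as many genes upward as downward. Of the 16350 genes tested, 8138 (49.8%) differed at an adjusted p under 0.05, with 3852 (23.6%) higher and 4286 (26.2%) lower in OE. Differences of at least 2-fold were found for 615 genes higher in OE (3.76%) and 624 lower (3.82%), and 191 and 280 of these reached a mean of 5 CPM in a line. Most called differences were small: 66.9% were under 1.5-fold, and the median size was 0.38 on the log2 scale. The 3 OE values did not overlap the 3 KD values for 9255 genes (56.6%), and 8920 (54.6%) had an unadjusted p under 0.05. Upper-quartile scaling in place of TMM moved the median of all genes by 0.0793 on the log2 scale and gave 5184 genes higher and 3411 lower, so that the share of calls that were higher went from 47.3% to 60.3%. Against a minimum fold of 1.5, 630 genes were higher and 829 lower.

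The largest rises in OE were genes nearly silent in KD. Prkd1, which encodes protein kinase D1, a kinase that responds to diacylglycerol, had 11.5, 12.8 and 9.80 CPM in OE and 0 counts in each KD library. Against the floor of 3 counts per library it was at least 173.4-fold higher in OE. Ntn1, the gene of the secreted guidance cue netrin-1 (chr11:68209364-68400823, minus strand), had 21.76, 20.03 and 22.03 CPM in OE and 0.0397, 0 and 0.0410 CPM in KD. It was at least 324.9-fold higher, the largest bound among the genes at the floor in KD. Glul, which encodes glutamine synthetase, was at least 86.56-fold higher in OE, at 5.67 ± 0.569 CPM. Htatip2, which encodes an oxidoreductase, was at least 77.81-fold higher, at 5.10 ± 0.671 CPM.

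The other large rises had counts above the floor in KD. Eif4g3, a scaffold subunit of the translation initiation complex, had 50.6, 54.3 and 50.1 CPM in OE and 0.0993, 0.176 and 0.369 CPM in KD, a log2 difference of 7.88 (SE 0.449). Tubb4a, a beta-tubulin isotype best known from brain, had 105, 106 and 104 CPM in OE and 1.33, 0.628 and 1.21 CPM in KD, a log2 difference of 6.59 (SE 0.326). Of the rises named here it was the highest in OE, and none of its OE libraries came near a KD library. Pard6g, an adaptor of the cell polarity complex, was at 8.65 ± 1.11 CPM in OE and 0.0851 ± 0.0498 CPM in KD. Armcx4 was at 5.99 ± 0.587 and 0.0606 ± 0.0538 CPM. Ntng2, the membrane-anchored netrin-G2, was at 6.17 ± 0.501 and 0.0675 ± 0.0623 CPM, and it overlaps 6530402F18Rik on the same strand, which differed alike, so their counts may be shared. These 9 rises each had an edgeR adjusted p of 1.1e-20 or smaller. The WT mean lay between the OE and KD means for each of the 9, from 0.173 CPM for Ntng2 to 32.4 CPM for Tubb4a.

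The largest fall was Scn2b, which encodes the beta-2 subunit of voltage-gated sodium channels. It had 15.2, 14.5 and 16.1 CPM in KD and 0 counts in every OE and WT library, at least 239.6-fold lower in OE than in KD. Counts of Scn2b were thus found in KD alone among these 9 libraries. Vat1l had 109, 112 and 119 CPM in KD and 1.39, 2.08 and 1.96 CPM in OE, a log2 difference of -5.97 (SE 0.180) at an edgeR adjusted p of 7.08e-34. Cyba, which encodes p22phox, the membrane subunit that NADPH oxidases share, had 25.9, 23.8 and 24.1 CPM in KD and 0.554, 0.485 and 0.667 CPM in OE. The difference was -5.44 on the log2 scale (SE 0.127), and WT at 19.5 ± 1.61 CPM was near KD. Cyba overlaps Galnt2l on the opposite strand, and the use of strand in counting is not given in the sources used here.

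The other 7 of the 10 largest falls ranged from -5.50 to -3.82 on the log2 scale. Smoc1, a secreted SPARC-related protein of basement membranes, was at 0.498 ± 0.128 CPM in OE and 10.7 ± 0.539 CPM in KD, with WT above both at 16.2 ± 0.756 CPM. Col5a3, a chain of collagen V, was at 1.80 ± 0.559 CPM in OE and 27.2 ± 0.783 CPM in KD. Pcdh7, a protocadherin, was at 2.29 ± 0.494 and 36.7 ± 1.13 CPM. Pla2g5, a secreted phospholipase A2, was at 0.183 ± 0.0367 and 8.39 ± 0.473 CPM, and it overlaps Pla2g2a on the opposite strand. Il17re, a receptor of the interleukin-17 family, was at 0.397 ± 0.229 and 5.71 ± 0.569 CPM, and Sh3rf2 at 2.18 ± 0.836 and 38.7 ± 1.43 CPM. Peak1os, an RNA antisense to Peak1, was at 0.460 ± 0.141 and 20.5 ± 0.635 CPM, a value that could hold reads of Peak1. No OE library reached a KD library for any of these genes, and the edgeR adjusted p was 1.73e-05 for Sh3rf2 and smaller for the others.

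**Figure D1:**
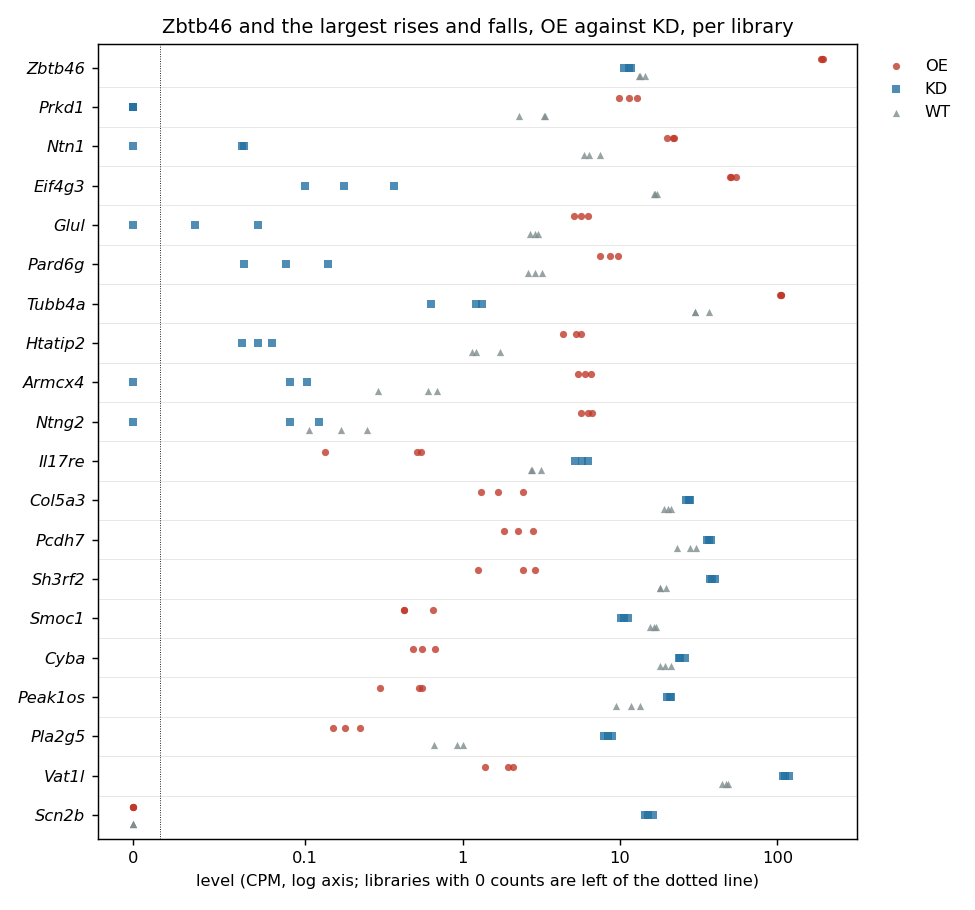
Level in CPM (log axis) of Zbtb46, 9 of the 10 largest rises and the 10 largest falls in each of the 9 libraries, with OE as circles, KD as squares and WT as triangles; a point left of the dotted line is a library with 0 counts. OE and KD never overlap, Zbtb46 is at 191 CPM on average in OE against 11.2 in KD, and the WT points of the 9 rises lie between those of the modified lines on average.

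The 6 most abundant genes that differed at least 2-fold were all lower in OE. Col3a1, the main chain of collagen III, had 1036, 1063 and 1053 CPM in OE and 3256, 3194 and 3264 CPM in KD, a log2 difference of -1.63 (SE 0.015) at an edgeR adjusted p of 5.31e-38. Csf1, the growth factor of macrophages, had 362, 374 and 361 CPM in OE and 977, 994 and 1030 CPM in KD, a log2 difference of -1.46 (SE 0.030). The lines were far apart beside the spread of their libraries in both genes, and WT was near KD, at 3145 ± 150.5 CPM for Col3a1 and 824 ± 16.2 CPM for Csf1. Aldh1a1, which makes retinoic acid from retinal, was at 287.5 ± 0.783 CPM in OE and 876 ± 25.0 CPM in KD. Lrrn4, a leucine-rich repeat membrane protein, was at 292 ± 8.12 and 819 ± 21.7 CPM. Tpm1, an actin-binding tropomyosin, was at 582 ± 16.5 and 1179 ± 16.3 CPM, and Gas1, a membrane protein that binds Hedgehog ligands, at 409 ± 13.2 and 839 ± 4.43 CPM. Tpm1 and Gas1 lie in stretches of chromosomes 9 and 13 that were lower as a whole in OE, described below, and with the median of their stretch removed their differences were -0.55 and -0.49.

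Silence in a line was mostly silence in KD. With at most 3 counts in every library of a line and at least 1 CPM in the other, 18 genes were at the floor in KD and 4 in OE. All 18 encode proteins. They include Nog, which encodes the BMP antagonist noggin, at 2.856, 2.504 and 3.001 CPM in OE and 0, 0.0502 and 0.0205 CPM in KD, at least 42.57-fold higher. Gucy1b1, a subunit of the nitric oxide receptor guanylate cyclase, was at least 50.02-fold higher in OE, and Duoxa2, a maturation factor of a dual oxidase, at least 56.61-fold. The homeobox and forkhead factors Msx1, Prrx1 and Foxd1 were at least 25.93-fold, 18.51-fold and 45.03-fold higher. In WT, 8 of the 18 reached 1 CPM. The genes at the floor in OE included Scn2b, Olfr333-ps1 and Dmd, none of which reached 1 CPM in WT. Genes in this paragraph other than Scn2b were chosen after their values were seen.

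The gene lists give the differences by function. The share of tested members called in each of 20 lists is read against the background of all genes, 23.6% higher and 26.2% lower. The median log2 difference over all genes tested was 0.0027. Glycolysis and hypoxia, cholesterol and fatty acid synthesis, and amino acid metabolism were mostly higher in OE. The unfolded protein response, interstitial matrix, contractile genes, and BMP and TGF-beta signalling were mostly lower. When the fold bounds replaced the fitted values of genes at the floor, 0 of the 20 list medians moved. Beyond the 3 members with the largest differences, members named in the following were chosen after their values were seen.

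**Figure D2:**
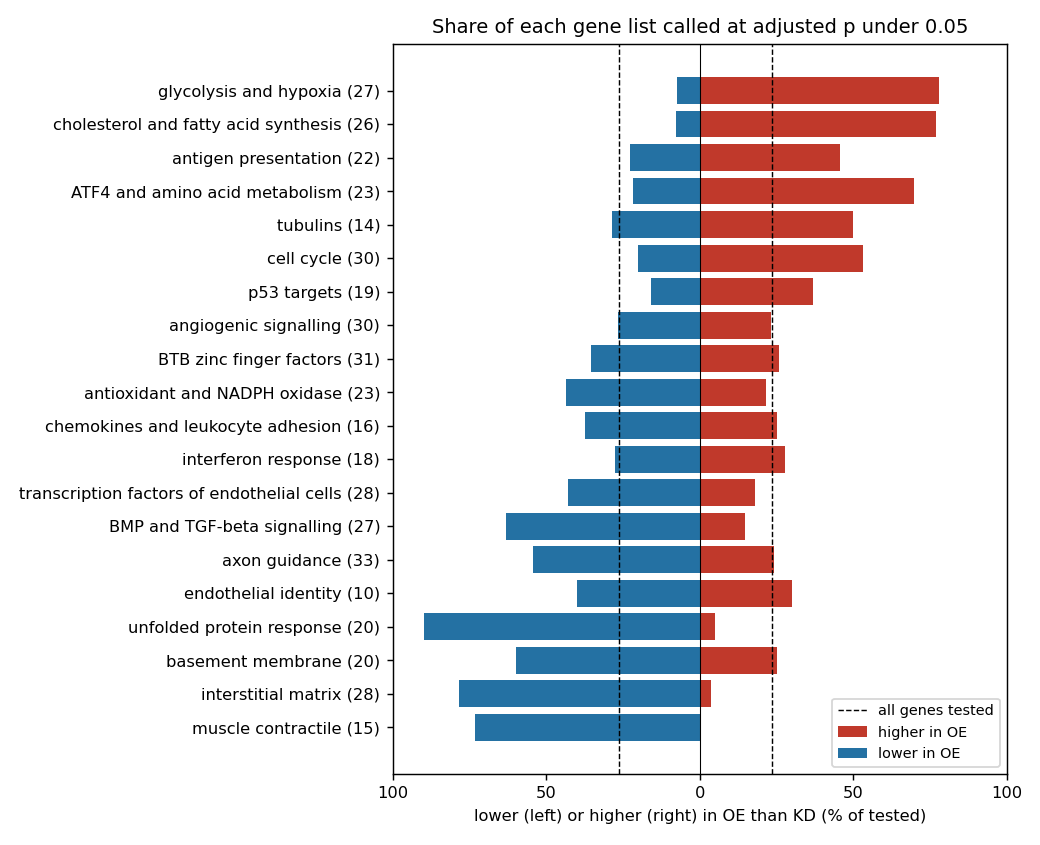
Percentage of the tested members of each of 20 gene lists (number tested in brackets) called lower (blue, left) or higher (red, right) in OE than in KD, ordered by the median log2 difference; dashed lines mark the shares of all genes tested, 26.2% lower and 23.6% higher. Glycolysis and hypoxia (77.8%) and cholesterol and fatty acid synthesis (76.9%) reach farthest to the right, and the unfolded protein response (90.0%) farthest to the left.

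Glycolysis converts glucose to pyruvate and, through lactate dehydrogenase, to lactate. Many of its genes are targets of the hypoxia-inducible factors, which bind an element with the core ACGTG. Of 27 genes of glycolysis and the hypoxia response, all tested, 21 were higher in OE, 2 lower and 4 not called, with a median log2 difference of 0.54. The glucose transporter gene Slc2a1 had 172, 168 and 171 CPM in OE and 74.9, 79.7 and 83.3 CPM in KD, a log2 difference of 1.10 (SE 0.047) at an edgeR adjusted p of 4.25e-26. Along the pathway, Hk2 (0.53), Gpi1 (0.37), Pfkl (0.88), Aldoa (0.79), Tpi1 (0.53), Gapdh (0.34), Pgk1 (0.77), Pgam1 (0.53) and Eno1 (0.97) were higher in OE, with the log2 difference in brackets. Pkm, which encodes pyruvate kinase, was lower by a small margin (-0.12, SE 0.008, edgeR adjusted p 3.04e-06). Slc2a1 and Eno1 lie in stretches of chromosome 4 that were higher as a whole and Pkm in one of chromosome 9 that was lower, as described below. With the medians of their stretches removed, Slc2a1 stood at 0.63, Eno1 at 0.49 and Pkm at 0.42.

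Genes past pyruvate differed in the same direction. Ldha, which encodes the lactate dehydrogenase subunit of muscle type, had 1583, 1583 and 1642 CPM in OE and 820, 863 and 856 CPM in KD, a log2 difference of 0.91 (SE 0.027). Pdk1, a kinase that inhibits pyruvate dehydrogenase, had 69.8, 67.0 and 69.8 CPM in OE and 30.3, 31.2 and 30.0 CPM in KD, a log2 difference of 1.17 (SE 0.025). Neither gene had an OE library near a KD library. Aldoc, an aldolase isotype, had the largest difference of the list at 31.8 ± 1.88 CPM in OE and 1.65 ± 0.249 CPM in KD, and Bnip3, a mitophagy receptor, was at 21.1 ± 0.903 and 7.12 ± 1.71 CPM. The hypoxia sensor gene Egln3 was higher (0.88, SE 0.066), Egln1 was not called (-0.0129), and the factor genes went apart, with Hif1a lower (-0.21, SE 0.035) and Epas1 higher (0.52). Outside the chromosome stretches described below, 19 of 23 members were higher and 1 lower.

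Promoters of this group were read in the RefSeq promoter table (GRCm38.p6) as the 250 bases before a gene's start, which held 25 of the 27 genes and 10385 of the genes tested. A gene with several listed starts was counted where any of them held the letters sought, here and below. The letters ACGTG stood on either strand for 15 of the 25 genes (60.0%), against 25.0% of all 10385. The promoters of Ldha (chr7:46845554-46845803, plus strand) and Pgk1 (chrX:106186850-106187099, plus strand) are shown because these glycolytic genes were higher in OE and hold the letters more than once. Ldha has 2 listed starts, and a start with the most matches was printed. Capitals mark ACGTG on the strand printed or CACGT, its reverse complement, and where both overlap they form CACGTG.
Ldha: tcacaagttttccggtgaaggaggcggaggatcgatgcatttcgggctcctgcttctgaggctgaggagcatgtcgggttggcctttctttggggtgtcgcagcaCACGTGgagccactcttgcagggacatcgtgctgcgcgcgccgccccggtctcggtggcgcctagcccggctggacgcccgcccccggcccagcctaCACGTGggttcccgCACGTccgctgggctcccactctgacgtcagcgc
Pgk1: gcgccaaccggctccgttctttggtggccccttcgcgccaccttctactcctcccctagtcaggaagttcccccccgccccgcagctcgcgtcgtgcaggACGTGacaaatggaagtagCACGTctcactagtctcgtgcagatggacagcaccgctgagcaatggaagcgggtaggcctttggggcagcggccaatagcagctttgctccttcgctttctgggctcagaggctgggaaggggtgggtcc
A match is a string of letters, and binding was not measured. Hif1a, Egln1, Pfkfb3 and Pkm, which were not higher in OE, held the letters too.

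Cholesterol and fatty acid synthesis genes are switched on together by the SREBP transcription factors when sterols are low, and INSIG1 holds these factors back in the endoplasmic reticulum. Of 26 genes, all tested, 20 were higher in OE, 2 lower and 4 not called, with a median log2 difference of 0.52. Insig1 had 157, 162 and 154 CPM in OE and 77.3, 75.4 and 70.4 CPM in KD, a log2 difference of 1.08 (SE 0.045) at an edgeR adjusted p of 6.97e-26. Enzymes of the later sterol steps were among the higher genes: Cyp51 was at 228 ± 8.93 CPM in OE and 121 ± 3.13 CPM in KD, and Dhcr7 at 51.9 ± 1.74 and 27.8 ± 1.51 CPM. Sqle (0.63), Lss (0.70), Msmo1 (0.72) and Fdft1 (0.79) were also higher on the log2 scale.

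Some early steps of the same pathway were not called. Hmgcs1, which makes HMG-CoA, was at 116 ± 2.98 CPM in OE and 110.2 ± 4.74 CPM in KD (log2 difference 0.0691, edgeR adjusted p 0.0883), and Mvk (0.0374) and Idi1 (0.0521) were not called either. Hmgcs1 lies in a stretch of chromosome 13 that was lower as a whole, and with the median of that stretch removed it stood at 0.48. Sc5d, a desaturase of the last sterol steps, was lower in OE (-0.26), and at 0.28 with the median of its stretch of chromosome 9 removed. In fatty acid synthesis, Scd2 had 2681, 2713 and 2803 CPM in OE and 1587, 1620 and 1559 CPM in KD (0.77, SE 0.021), and Fasn was at 844 ± 20.8 and 624 ± 31.9 CPM. The factor genes Srebf1 (0.38) and Srebf2 (0.41) were higher. With upper-quartile scaling 24 members were higher and 2 lower, and outside the chromosome stretches 18 of 20 were higher and 0 lower.

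The unfolded protein response adjusts the folding capacity of the endoplasmic reticulum through the sensors encoded by Ern1, Atf6 and Eif2ak3 and the factor XBP1. All 20 genes of the list were tested, and 18 were lower in OE, with a median log2 difference of -0.31. The differences were small beside the fold changes above but tight between libraries. Hspa5, the chaperone BiP, had 1784, 1778 and 1818 CPM in OE and 2105, 2263 and 2238 CPM in KD, a log2 difference of -0.30 (SE 0.034) at an edgeR adjusted p of 1.55e-13. Hyou1, another chaperone, had 391, 395 and 404 CPM in OE and 718, 754 and 746.5 CPM in KD (-0.91, SE 0.025). Hyou1 lies in a stretch of chromosome 9 that was lower as a whole, and its difference was -0.36 with the median of that stretch removed. Dnajc3, a co-chaperone of BiP, was at 119 ± 1.77 CPM in OE and 204.8 ± 5.42 CPM in KD (-0.79, SE 0.025), and Xbp1 at 80.7 ± 0.759 and 132 ± 3.03 CPM (-0.72, SE 0.021), or -0.27 with the median of its stretch of chromosome 11 removed. Sdf2l1 (-0.64), Dnajb9 (-0.70), Manf (-0.33) and Herpud1 (-0.37) were lower too. Ern1 was not called (-0.0320), and Ddit3, the factor CHOP, was higher by 0.20 (SE 0.066, edgeR adjusted p 0.0453). The Ddit3 call was lost when OE replicate 1, OE replicate 2 or any KD replicate was left out.

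WT was below both modified lines for 16 of the 19 members of this list that were called. Hspa5 was at 1258 ± 43.7 CPM in WT, under every OE and KD library. The median level relative to WT was 0.65 in KD and 0.25 in OE on the log2 scale, computed from mean CPM with 0.5 added, against 0.0023 and 0.0069 over all genes tested. Both values rest on the same WT libraries.

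The endoplasmic reticulum stress element, CCAAT and CCACG with 9 bases of any kind between them, is bound by ATF6 with the factor NF-Y. It stood on either strand within 250 bases before the start in 8 of the 17 promoters of this list in the RefSeq table (47.1%) and in 18 of 10385 (0.173%) overall. The 8 were Hspa5, Hsp90b1, Calr, Canx, Pdia6, Dnajc3, Creld2 and Syvn1, each called lower in OE. So were 18 of the 20 members of the whole list, among them Hyou1, Xbp1, Dnajb9 and Sdf2l1, which are not among the 8. The promoters of Hspa5 (chr2:34771840-34772089, plus strand) and Dnajc3 (chr14:118937682-118937931, plus strand) are shown because they carry this element in full, which the capitals mark.
Hspa5: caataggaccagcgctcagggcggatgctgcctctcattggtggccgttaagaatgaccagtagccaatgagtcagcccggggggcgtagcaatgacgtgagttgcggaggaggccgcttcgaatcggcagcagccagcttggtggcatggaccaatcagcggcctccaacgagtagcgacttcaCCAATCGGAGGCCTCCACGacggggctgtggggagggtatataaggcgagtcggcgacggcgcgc
Dnajc3: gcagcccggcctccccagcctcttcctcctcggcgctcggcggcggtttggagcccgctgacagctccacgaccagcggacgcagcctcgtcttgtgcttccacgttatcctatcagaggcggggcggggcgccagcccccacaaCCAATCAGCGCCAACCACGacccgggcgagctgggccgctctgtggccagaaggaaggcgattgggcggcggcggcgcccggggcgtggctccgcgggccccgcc
No promoter of the 25 glycolysis and hypoxia genes, the 18 cholesterol and fatty acid genes or the 16 interstitial matrix genes in the table held these letters in this window.

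ATF4 drives genes of amino acid transport and synthesis when amino acids are short or eIF2-alpha is phosphorylated. Of 23 tested genes of this group, 16 were higher in OE and 5 lower, with a median log2 difference of 0.22. Trib3, a pseudokinase that feeds back on ATF4, had 53.5, 55.7 and 56.9 CPM in OE and 28.7, 28.1 and 29.2 CPM in KD (0.94, SE 0.028, edgeR adjusted p 1.2e-19). Sesn2, a leucine sensor, was at 44.0 ± 1.96 and 20.7 ± 0.641 CPM, and Vldlr, a lipoprotein receptor, at 17.0 ± 0.547 and 6.30 ± 0.363 CPM. Sesn2 lies on chromosome 4 in a stretch that was higher as a whole, and its difference of 1.08 was 0.60 with the median of that stretch removed. Asns, asparagine synthetase, was at 286 ± 13.1 CPM in OE and 202 ± 6.91 CPM in KD. The amino acid transporter genes Slc7a5 (-0.61, or -0.14 with the median of its stretch of chromosome 8 removed) and Slc3a2 (-0.18), whose products form 1 complex, were lower. WT was below both lines for 13 of the 21 called members.

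**Figure D3:**
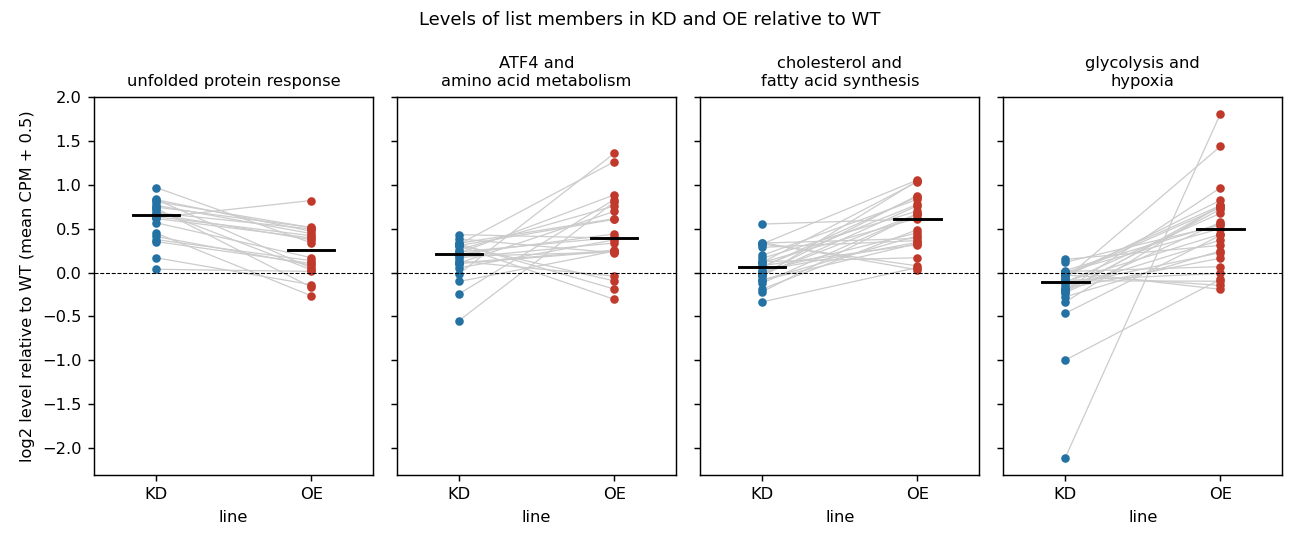
Log2 level of each tested member of 4 gene lists in KD (blue) and OE (red) relative to WT, from mean CPM with 0.5 added; grey lines join a gene and black bars are medians. For the unfolded protein response the medians are 0.65 in KD and 0.25 in OE, both above the dashed line of WT, while for glycolysis and hypoxia they are -0.10 and 0.50.

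Interstitial matrix genes were lower in OE almost throughout. The list holds collagens, their crosslinking enzymes, proteoglycans and the proteases and inhibitors that remodel them, and of 28 tested genes 22 were lower and 1 higher, with a median log2 difference of -0.49. Beside Col3a1, the proteoglycan decorin (Dcn) had 35.9, 37.0 and 37.3 CPM in OE and 99.9, 94.5 and 99.0 CPM in KD, a log2 difference of -1.42 (SE 0.029) at an edgeR adjusted p of 8.74e-28. Ccn2, the matricellular growth factor CTGF, was at 84.0 ± 6.12 and 178 ± 9.28 CPM. Lox, which crosslinks collagen and elastin, had 443, 441 and 448 CPM in OE and 839, 885 and 861 CPM in KD (-0.96, SE 0.023), and Bgn (-0.998), Timp3 (-0.99), Col6a2 (-0.85) and Timp2 (-0.70) were also lower. Col1a1, the most abundant of them in CPM, differed less, at 4032 ± 47.3 against 4773 ± 30.3 CPM (-0.25, SE 0.009).

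Fibronectin was the exception. Fn1 had 5776, 5641 and 6030 CPM in OE and 4364, 4236 and 4031 CPM in KD, a log2 difference of 0.46 (SE 0.041), and it was the 1 member called higher. Without OE replicate 2 or any of the KD replicates, 2 members were called higher. The fibroblast marker sum was lower in OE as well, and 5 of the 9 markers (Col1a1, Col1a2, Dcn, Lum and Postn) are members of this list, so the lists overlap and the marker sum is no separate measure.

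**Figure D4:**
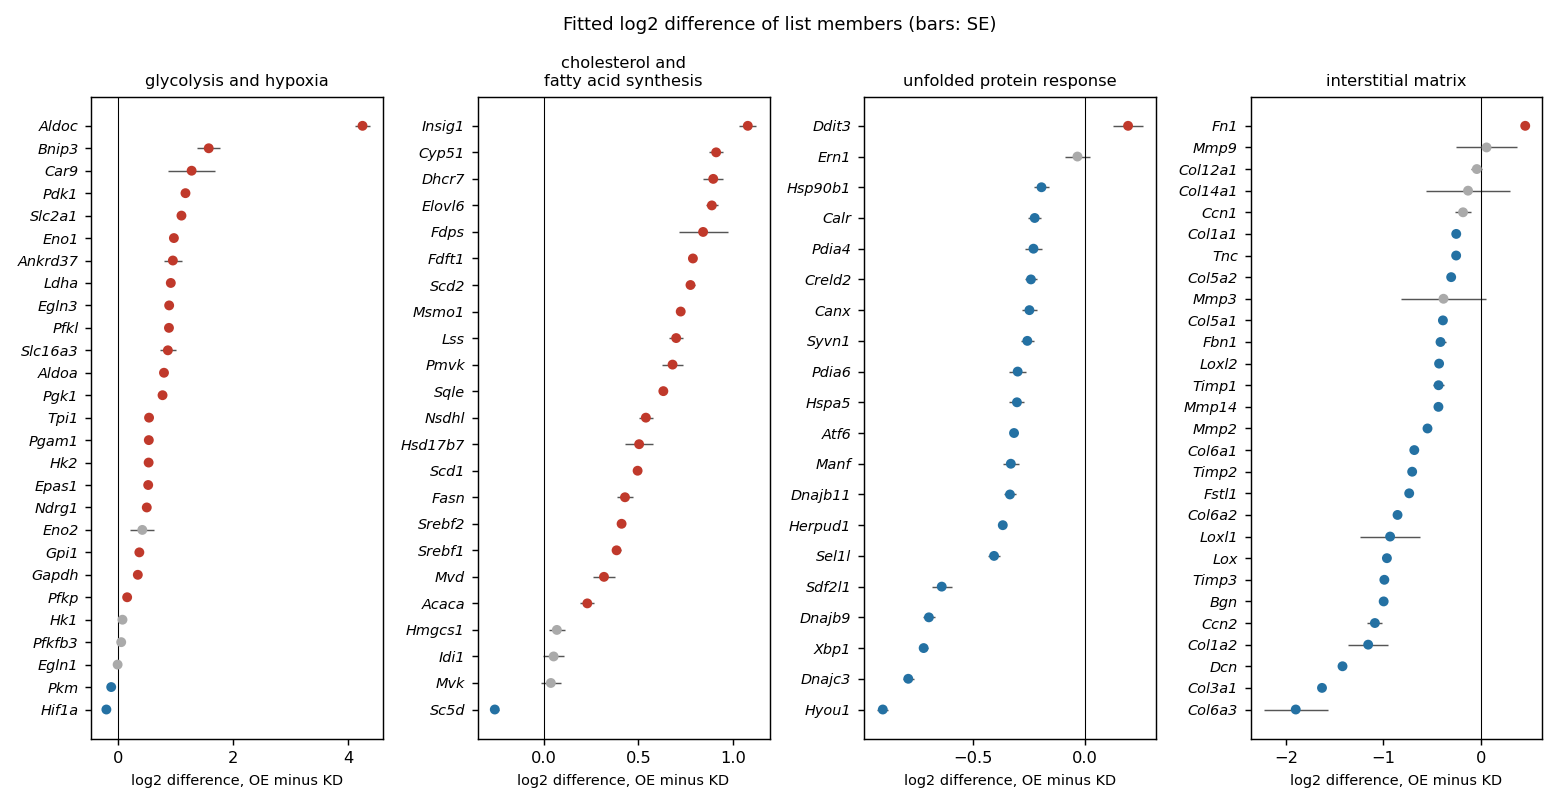
Fitted log2 difference (OE minus KD) with its SE for tested members of 4 gene lists, 3 cholesterol and fatty acid genes left out, red where called higher in OE, blue where called lower and grey where not called; each panel has its own axis. Glycolysis and cholesterol genes lie mostly to the right of 0, with Aldoc farthest at 4.25, and unfolded protein response and matrix genes mostly to the left, with Ddit3 and Fn1 as the members called higher.

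Contractile genes were lower or not called. Of 15 tested, 0 were called higher and 11 lower in OE, with a median log2 difference of -0.63. Mylk, which encodes myosin light chain kinase, had 7.37, 6.30 and 7.05 CPM in OE and 20.9, 23.1 and 22.0 CPM in KD (-1.68, SE 0.079, edgeR adjusted p 4.23e-20). Smtn, the actin-binding smoothelin, was at 83.9 ± 2.45 and 176 ± 0.164 CPM, and Cald1 (-0.63), Vcl (-0.55), Cnn2 (-0.67) and Tpm4 (-0.45) were lower as well. Smtn had a difference of -1.08, or -0.62 with the median of its stretch of chromosome 11 removed. The smooth muscle genes Acta2 and Tagln were low in both lines: Acta2 was at 1.75 ± 0.176 CPM in OE and 2.80 ± 0.0386 CPM in KD, and Tagln was under 1 CPM. Actc1, the cardiac actin, was at 5.39 ± 0.854 CPM in OE and 7.21 ± 0.642 CPM in KD and had 0 counts in the 3 WT libraries.

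Basement membrane genes went both ways. Of 20 tested, 12 were lower and 5 higher in OE, with a median log2 difference of -0.38. Collagen IV, the network-forming collagen of basement membranes, was lower: Col4a1 had 1133, 1138 and 1173 CPM in OE and 1992, 1977 and 2000 CPM in KD (-0.80, SE 0.014, edgeR adjusted p 3.5e-28), and Col4a2, which shares its promoter region, was at 736 ± 11.8 and 1246 ± 15.3 CPM. The laminin chain gene Lamb3 was at 5.82 ± 0.413 and 22.0 ± 1.31 CPM, and Lamc1 (-0.53), Lamb2 (-0.67) and Sparc (-0.57) were lower. The 5 higher genes were Nid2, Col18a1, Agrn, Hspg2 and the laminin chain gene Lama4 (0.53). Nid2, which encodes nidogen-2, had 16.4, 16.4 and 16.7 CPM in OE and 0.278, 0.352 and 0.123 CPM in KD, a log2 difference of 6.05 (SE 0.376), while WT at 13.1 ± 2.10 CPM was near OE. Col18a1, the source of endostatin, was at 47.4 ± 1.55 and 12.5 ± 0.807 CPM, Agrn at 128 ± 4.02 and 78.3 ± 3.51 CPM, and Hspg2, perlecan, at 1263 ± 54.7 and 869 ± 70.6 CPM. Nid1, the gene of nidogen-1, was lower (-1.02, SE 0.459), at under 1 CPM in both lines. Agrn and Hspg2 lie in stretches of chromosome 4 that were higher as a whole, and their differences of 0.69 and 0.53 were 0.22 and 0.0439 with the medians removed. Outside all such stretches, 3 of 18 members were higher and 12 lower.

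Signalling by BMP and TGF-beta runs from ligands through paired receptors to SMAD proteins. Of 27 tested genes, 17 were lower and 4 higher in OE, with a median log2 difference of -0.18. Among ligands, Tgfb2 was at 52.8 ± 1.96 CPM in OE and 117 ± 1.49 CPM in KD, and Inhbb, an activin subunit, at 3.27 ± 0.296 and 7.71 ± 0.475 CPM. By means, Inhba and Ltbp2 went the other way. Their log2 levels relative to WT were 0.577 and 1.262 in OE and 0.298 and -0.175 in KD. The receptor gene Tgfbr2 had 111.5, 113 and 118 CPM in OE and 359, 383 and 374 CPM in KD, a log2 difference of -1.71 (SE 0.035) at an edgeR adjusted p of 1.08e-34. Of the inhibitors, Smad6 (-0.97, or -0.50 with the median of its stretch of chromosome 9 removed) and the BMP antagonist Chrd (-1.11) were lower, while Nog was higher. Id2, a direct target of BMP signalling in many cells, was higher at 87.8 ± 1.26 against 34.7 ± 1.94 CPM (1.33, SE 0.049). Other targets did not share its direction: Id3 was lower (-0.16, or -0.65 with the median of its stretch of chromosome 4 removed) and Id1 was not called (-0.0147).

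Few endothelial identity genes could be tested. Of 25, 10 passed the filter on low counts, and 3 were higher and 4 lower in OE. Ptprb, the phosphatase VE-PTP, had 2.52, 3.25 and 3.49 CPM in OE and 17.3, 21.3 and 20.2 CPM in KD (-2.67, SE 0.164, edgeR adjusted p 1.86e-21). Ecscr was higher in OE at 8.18 ± 1.37 against 1.51 ± 0.0572 CPM, and Flt1, a VEGF receptor, at 21.9 ± 1.58 against 12.1 ± 0.979 CPM. Kdr, the main VEGF receptor, overlapped between the lines at 1.53, 1.88 and 1.89 CPM and 1.69, 1.31 and 1.21 CPM. Fli1 had 0 counts in the 3 OE libraries and 17 to 40 in KD, under 1 CPM. The median log2 difference of -0.26 turned to 0.32 without the 3 members that lie in the chromosome stretches described below.

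In angiogenic signalling the called genes divided evenly, 7 higher and 8 lower of 30, near the background shares, with a median log2 difference of 0.0232. With upper-quartile scaling 10 were higher and 8 lower. The largest rises were those of Fgfbp3 and Fgfr1. Fgfr1, a receptor of fibroblast growth factors, had 52.5, 49.6 and 49.3 CPM in OE and 4.43, 3.52 and 4.81 CPM in KD (3.55, SE 0.139, edgeR adjusted p 2.28e-30), and Fgfbp3, which releases these factors from the matrix, was at 35.9 ± 0.702 and 1.23 ± 0.215 CPM. Vegfc, the ligand of lymphatic growth, was at 5.21 ± 0.734 and 0.769 ± 0.275 CPM. Vegfa (-0.0588) and Fgf2 (-0.0873) were not called. Notch1 was lower at 7.60 ± 1.25 against 16.2 ± 1.55 CPM (-1.10, SE 0.161) and its ligand gene Jag1 higher (0.53, SE 0.076).

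Guidance genes were more often lower than higher. Of 33 tested, 18 were lower and 8 higher in OE, with a median log2 difference of -0.24. Plxna2, a semaphorin receptor, had 2.24, 2.67 and 2.20 CPM in OE and 8.52, 8.49 and 8.46 CPM in KD (-1.85, SE 0.088, edgeR adjusted p 3.19e-15). Neo1, a receptor of netrins and repulsive guidance molecules, was at 136 ± 2.80 and 277 ± 2.29 CPM, opposite in direction to Ntn1. Neo1 lies in a chromosome 9 stretch that was lower as a whole, and its difference of -1.04 was -0.49 with the median of that stretch removed. Plxnd1 (-0.94), Sema3a (-0.91), Efnb1 (-0.75), Plxna1 (-0.60) and Slit3 (-0.60) were lower, and Slit1 (2.07), Sema3g (1.65), Efna1 (0.59), Epha7 (0.38), Epha2 (0.19) and Ephb4 (0.14) were higher. Slit1 and Sema3g were near or under 1 CPM in both lines. Epha2 lies in a stretch of chromosome 4 that was higher as a whole, and with the median of that stretch removed it stood at -0.29.

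Genes that act on leukocytes went both ways. Of 16 tested chemokine, cytokine and adhesion genes, 6 were lower (37.5%) and 4 higher (25.0%) in OE, each beside the background of 26.2% and 23.6%. The median of -0.0444 changed sign to 0.0350 with upper-quartile scaling. Vcam1, which binds leukocyte integrins, had 25.6, 24.7 and 23.5 CPM in OE and 73.3, 74.3 and 76.0 CPM in KD (-1.61, SE 0.043, edgeR adjusted p 2.2e-27). Icam1 was at 2.87 ± 0.256 and 7.26 ± 0.293 CPM, and its difference of -1.35 was -0.84 with the median of its stretch of chromosome 9 removed. The alarmin gene Il33 was at 11.7 ± 0.707 and 28.6 ± 1.09 CPM, and with Csf1 it was among the 6 members lower by at least 2-fold. Cxcl12 was higher (0.88, SE 0.107), and Ccl2 overlapped between the lines at 30.3 ± 1.09 and 30.3 ± 3.29 CPM.

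Antigen presentation by MHC class I needs the TAP transporter, the immunoproteasome and the class I chains. Of 22 tested genes, 10 were higher and 5 lower in OE, with a median log2 difference of 0.25. H2-K1 had 272, 283 and 272 CPM in OE and 158, 156.5 and 171 CPM in KD (0.76, SE 0.046, edgeR adjusted p 1.68e-20), and H2-Q4 was at 39.8 ± 0.395 and 23.5 ± 0.605 CPM. Class I genes are near-identical copies, so reads may be split among them. Tap1 and Tap2 were higher at 3.22 ± 0.313 and 4.75 ± 0.417 CPM in OE against 0.936 ± 0.271 and 0.963 ± 0.111 CPM in KD. Psmb8, an immunoproteasome subunit, had 0 counts in KD and 0.480 ± 0.0337 CPM in OE. Erap1, which trims peptides, was lower at 11.8 ± 0.525 against 22.0 ± 1.25 CPM, or -0.35 in place of -0.90 with the median of its stretch of chromosome 13 removed. Interferon response genes went both ways, 5 higher and 5 lower of 18, with a median log2 difference of -0.12. These shares, 27.8% each, were near the background of 23.6% higher and 26.2% lower. Gbp2 (-1.38) and Ifit2 (-0.67) were lower, and Isg15 (2.03), at 2.56 ± 0.395 against 0.621 ± 0.156 CPM, was higher.

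Cell cycle genes were more often higher, by small amounts. Of 30 tested, 16 were higher and 6 lower in OE, with a median log2 difference of 0.0841. Mki67 differed by 0.12 (SE 0.051) and Cdc20 by 0.57 (SE 0.027), or 0.11 with the median of its stretch of chromosome 4 removed. The D cyclins went apart, with Ccnd2 at 79.3 ± 1.48 CPM in OE and 159 ± 5.23 CPM in KD (-1.01, SE 0.033) and Ccnd1 at 20.6 ± 0.196 and 13.9 ± 0.628 CPM. Cdkn2c and Cdkn2a, inhibitors of the cyclin D kinases, were higher (1.05 and 0.85), and both lie in stretches of chromosome 4 that were higher as a whole, with 0.59 and 0.38 left once the medians were removed. Of 19 tested p53 targets, 7 were higher and 3 lower, with a median log2 difference of 0.0758, among them Btg2 (0.64), Cdkn1a (0.49) and Plk2 (-0.52, or -0.10 with the median of its stretch removed).

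Of the remaining lists, antioxidant and NADPH oxidase genes had 10 lower and 5 higher of 23, led by Cyba, with Gpx8 (-0.94) and Gsta4 (-0.68) next. Gpx8 and Gsta4 lie in lower stretches of chromosomes 13 and 9 and stood at -0.53 and -0.20 with the medians removed. Without KD replicate 1 or KD replicate 2, 3 members were higher, and with upper-quartile scaling 9 were higher and 10 lower and the median of -0.0411 became 0.0382. Of 14 tubulins, 7 were higher and 4 lower (9 and 1 with upper-quartile scaling), with a median log2 difference of 0.0906, and apart from Tubb4a all lay within 0.453 of 0. Tube1 was higher by 0.30 (SE 0.107). Tubb3 differed by -0.45 (SE 0.207, edgeR adjusted p 0.00844), but its libraries lay at 5.48, 5.19 and 5.62 CPM in OE and 6.12, 6.43 and 9.57 CPM in KD. That call was lost without KD replicate 3, with -0.22 and an edgeR adjusted p of 0.199 (0.000712 to 1 over the alternatives tried), and the difference was 0.0173 with the median of its stretch of chromosome 8 removed.

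Differences of other BTB zinc finger factors and their co-repressors were small beside that of Zbtb46. Of 31 tested, 8 were higher (25.8%) and 11 lower (35.5%) in OE, beside 23.6% and 26.2% of all genes tested. By at least 2-fold, 0 of the 31 differed, where 3.76% of all genes were higher and 3.82% lower. The median log2 difference was -0.0246, and with upper-quartile scaling 11 were higher and 8 lower with a median of 0.0546. Bcl6b was at 6.45 ± 0.559 CPM in OE and 3.50 ± 0.629 CPM in KD (0.87, SE 0.164), Zbtb38 at 15.97 ± 0.0804 and 26.0 ± 0.863 CPM (-0.71, SE 0.027), and Zbtb17 was higher by 0.71, or 0.24 with the median of its chromosome 4 stretch removed. Of 28 transcription factors of endothelial cells, 12 were lower and 5 higher, or 11 and 8 with upper-quartile scaling, with a median log2 difference of -0.15. Foxc1, a forkhead factor of vessel and heart development, had 16.33, 16.90 and 17.96 CPM in OE and 55.9, 62.9 and 57.9 CPM in KD (-1.79, SE 0.062, edgeR adjusted p 1.33e-26). Foxf1 was at 0.351 ± 0.116 and 3.64 ± 0.281 CPM. Klf6 was at 68.8 ± 2.39 and 120 ± 2.29 CPM, and Tbx20 at 80.1 ± 1.92 and 157 ± 1.21 CPM, with a difference of -0.97 that was -0.46 with the median of its stretch of chromosome 9 removed.

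The WT level lay between the modified lines for most large differences, but not always midway. By means, WT was between OE and KD for 65.3% of the 8138 genes called, against 45.7% of all genes tested, and for 82.9% of the 1239 genes that differed at least 2-fold. Among genes at least 2-fold higher in OE, WT was between for 89.1% and nearer to KD on the log2 scale for 51.9%. Among genes at least 2-fold lower in OE, WT was between for 76.8%, above both lines for 22.1%, and nearer to KD for 84.5%. Over all genes tested, WT was nearer to KD for 59.6%. By a second rule, WT counted as outside only where its libraries did not overlap the nearer line. WT was then not outside for 91.0% of the called genes, little above the 88.7% of all genes tested. These shares describe the order of the groups, with no test. A wide gap between OE and KD leaves more room for a WT mean within it. Higher shares among genes chosen for that gap thus follow in part from the choice. Cdh11 and Cemip, chosen after their values were seen, show the downward pattern. Cdh11, a cadherin, was at 138.5 ± 4.68 CPM in OE, 532 ± 13.1 CPM in KD and 454 CPM in WT, and Cemip, a hyaluronan-degrading protein, at 13.7 ± 0.298, 108 ± 2.91 and 119 CPM.

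Some of the differences followed position on the chromosomes. The tested genes were placed in 141 windows of 20 Mb with at least 10 genes, and the median log2 difference between OE and KD was beyond 0.2 in 14 windows on 5 chromosomes. All 4 windows above it lay on chromosome 4, from position 80000001 to 160000000 of GRCm38, with medians of 0.47 to 0.49, and 57.5% to 72.4% of their genes were called higher. The 10 windows below it lay on chromosomes 8 (1 window), 9 (5), 11 (1) and 13 (3), with medians of -0.62 to -0.38, and 48.4% to 73.3% of their genes were called lower. In each of the 14 windows the medians of the 3 OE libraries lay apart from those of the 3 KD libraries, as they did in 64 of the other 127 windows (50.4%). On chromosome 4 the median difference of WT from KD was 0.10 to 0.16 and that of OE from WT 0.25 to 0.31. In the 10 lower windows WT differed from KD by -0.16 to 0.0275 and OE from WT by -0.45 to -0.17.

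These 14 windows held 11.4% of the genes tested and 15.9% of those called. Genes outside them gave 6846 calls, 3317 higher and 3529 lower, of which 513 and 482 were at least 2-fold. Removing the window median turned the sign of Tubb3, Epha2, Pkm and Sc5d among the called genes named above. The number of copies of these regions in the lines was not measured, and what moved whole windows was not tested.

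**Figure D5:**
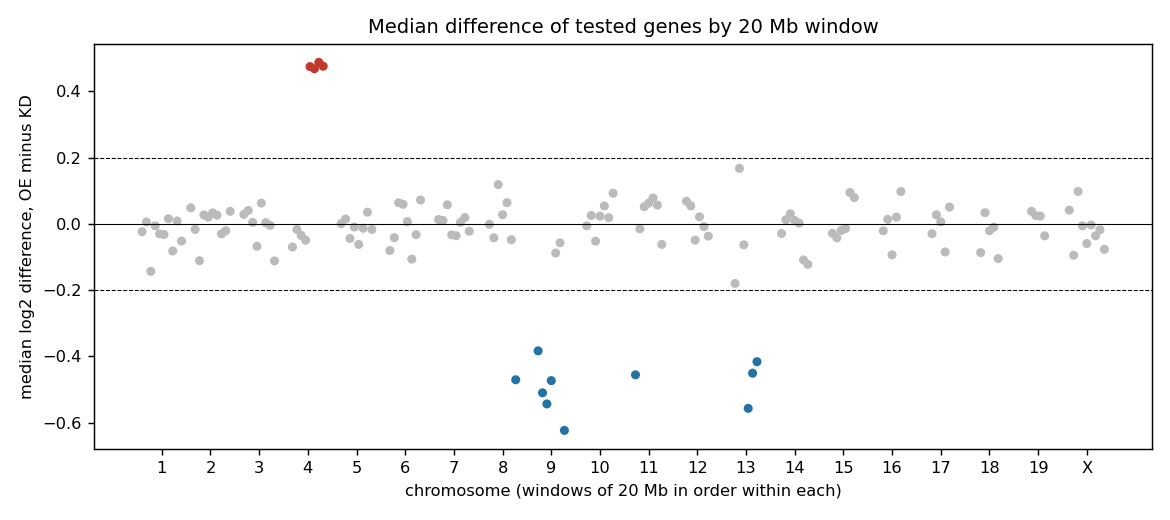
Median log2 difference (OE minus KD) of the tested genes in each of 141 windows of 20 Mb, in order along chromosomes 1 to 19 and X; dashed lines mark 0.2 and -0.2, red points lie above and blue points below. The 4 red windows are consecutive on chromosome 4 at 0.47 to 0.49, and the 10 blue windows, at -0.62 to -0.38, lie on chromosomes 8, 9, 11 and 13.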

How the data were processed

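Poly-A RNA of the 3 OE and 3 KD libraries was sequenced, with 3 WT libraries as a reference level. The deposited values are raw counts for each Ensembl gene, judged from the values: whole numbers, with totals that differ between libraries; the submitters' processing notes name the builds GRCm38 and mm10, and the aligner, counter and use of strand are not given in the sources used here. Of 55774 rows, 168 genes stood on 455 rows with identical counts and were counted once, which left 55487 genes, 55227 with a position in GENCODE M21 (GRCm38). 0 columns belonged to no sample and 0 rows named no gene.

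The 6 libraries were fitted with edgeR 4.0.16 in R 4.3.3 (filterByExpr by group, TMM, robust quasi-likelihood, Benjamini-Hochberg over 16350 genes, threshold 0.05). Of the 55487 genes, 31723 had a count in the 6 libraries. CPM values use TMM factors over all 9 libraries, so that all groups share a scale, while folds come from the fit of 6. SEs come from the SDs of log2 CPM with a prior count of 2. An exact permutation test of 3 against 3 cannot give a two-sided p under 0.1, so no such test was used for single genes. Where no library of a line had more than 3 counts, it was set at 3 counts, and the fold is given as a bound. Named genes were Zbtb46, the 10 largest rises and 10 largest falls and the 6 most abundant 2-fold differences (groups apart, at least 5 CPM in a line, no predicted-gene names), and up to 3 called members per list with the largest differences at 5 CPM or more. The members and lists were chosen with earlier results of these data known. Scripts were tested on simulated counts. Alternatives were DESeq2 1.42.0, limma-voom (limma 3.58.1), other scalings and filters, a fit of 9 libraries, a minimum fold of 1.5, other windows and each library left out. Tables were made with Python 3.11.15, pandas 2.3.3 and numpy 2.4.6, and plots with matplotlib 3.10.9. The counts over lists and named genes include some genes that are not reported here by name.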

Additional observations from a re-analysis of the deposited data

How the results depend on the processing

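The count of 8138 genes differing between OE and KD was 7737 with DESeq2, 8163 with limma-voom, 7031 in the fit of all 9 libraries, 8177 with DESeq2 size factors, 8595 with upper-quartile factors, 7593 with library totals alone and 7956 with no filter beyond 1 count. Leaving out each library in turn gave 7512 to 8013 genes, 3513 to 3851 higher and 3907 to 4162 lower, with 604 to 671 and 597 to 645 at least 2-fold. These counts stayed within 1.5 times the counts of the report. Those that did not were the test against a minimum fold change of 1.5, with 1459 genes, 630 higher and 829 lower, and a minimum of 10 counts in every library, which tests fewer genes and left 368 in place of 615 genes at least 2-fold higher. Windows of 10 Mb gave 32 windows beyond 0.2 in place of 14.

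The replicate numbers did not pair the libraries, since the residuals of same-numbered OE and KD libraries correlated at 0.018, 0.011 and 0.024. With the replicate block the count was 8220, of which 8068 were shared with the 8138.

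For the 79 named genes, 1370 of 1409 values under alternatives kept their direction and their side of the threshold or moved by less than the spread. In 10 genes the call was lost against a minimum fold of 1.5, and for Tubb3 also without KD replicate 3, and the Tubb3 difference of -0.45 reversed to 0.0173 with window medians removed. Removing window medians moved 27 genes by more than 1 SD without changing their sign. Of 340 counts of called list members under alternatives, 18 moved by over 1.5 times, all against the minimum fold of 1.5, from 23 to 11 for glycolysis and hypoxia and from 19 to 3 for the unfolded protein response. The windows were looked at with results known, and the counts outside them were added after seeing the data. Genes under 1 CPM rest on few counts per library at this depth.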

Other observations

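Several genes outside the gene lists differed widely between OE and KD. They were chosen after their values were seen. Igf2r, the receptor that clears insulin-like growth factor 2 and an imprinted gene, was at 106.5 ± 4.38 CPM (SD, n = 3) in OE, 2.84 ± 0.382 CPM in KD and 41.1 CPM in WT. It was higher in OE by 5.22 on the log2 scale (SE 0.113) at an edgeR adjusted p of 6.45e-39; it overlaps the antisense RNA Airn. Igfbp3, which binds insulin-like growth factors, went the other way at 95.0 ± 1.43 against 357.5 ± 7.99 CPM (-1.92, SE 0.024). With the median of its stretch of chromosome 11 removed, Igfbp3 stood at -1.46. Sulf2, which removes sulfate groups from heparan sulfate, was at 9.71 ± 0.0807 and 0.119 ± 0.0499 CPM. Gas6, the ligand of the TAM receptors, was at 22.0 ± 0.660 and 1.06 ± 0.118 CPM, and Ptx3, a soluble pattern recognition protein, at 31.9 ± 1.33 and 1.95 ± 0.313 CPM. Dusp9, a phosphatase of MAP kinases, was at 9.08 ± 0.224 and 0.149 ± 0.0942 CPM, and Adcy3, an adenylyl cyclase, at 25.2 ± 0.849 and 1.95 ± 0.0951 CPM.

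Genes lower in OE in the same selection included Cd93, a surface protein of endothelium, at 0.974 ± 0.346 CPM in OE and 9.15 ± 1.12 CPM in KD. Fbln5, an elastic fibre protein, was at 11.5 ± 0.481 and 74.6 ± 1.84 CPM. Aldh3a1, an aldehyde dehydrogenase, was at 9.76 ± 0.337 and 56.9 ± 3.72 CPM, and Cavin2, a coat protein of caveolae, at 138 ± 3.12 and 359 ± 9.48 CPM. Among the genes of this paragraph, only Prdx6, a peroxiredoxin, had a WT level near OE. It was at 154 ± 4.34 CPM in OE and 415 ± 5.76 CPM in KD, with WT at 158 CPM. Genes named above, such as Dnajc3 with WT at 115 CPM, had WT near OE too.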
